A study of Mus musculus with 20 samples.

Results

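The genes described here encode the secreted Wnt ligands, their Frizzled receptors and the secreted antagonists of the pathway. They were chosen by symbol: Wnt followed by a number and an optional a or b, Fzd followed by a number, Sfrp or Dkk followed by 1 digit, and Wif1. The rule found 38 of the 34620 gene symbols counted, namely 19 ligands, 10 receptors and 9 antagonists. Of these, 37 passed the filter on low counts and were tested among 19192 genes, and Wnt8a did not, with 3 counts or fewer in any library. A level of at least 5 CPM (read counts scaled to library size with the trimmed mean of M-values, TMM) in at least 1 library was reached by 34 members.

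The data are 6 polyA RNA libraries from frozen mouse brains that were sectioned and microdissected. All 6 are labelled male, C57BL/6 and WT, and the labels used here give no ages. Hippocampal precursors (HP), striatal precursors (SP), young hippocampal CA pyramidal neurons (yCA) and young medium spiny neurons (yMSN) have 1 library each, and 2 libraries come from dorsal medium spiny neurons (dMSN; medial in the labels). The 14 bisulfite samples of the series, among them the Dnmt3a conditional animals, were not analysed here. The labels do not say that the dMSN libraries came from separate animals, so p-values of dMSN comparisons measure only the spread between these 2 libraries. In the tests of stage and of lineage, a difference between the lineages in the stage change counts as spread too.

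Gene counts ran from 31282185 to 36969136 in the 4 single libraries and were 152347673 and 145713678 in dMSN 1 and dMSN 2. A level set by 3 counts, taken as the floor for a count of 0, was 0.0691 to 0.0861 CPM in the single libraries and 0.0249 and 0.0259 CPM in the dMSN pair. The libraries are dissected tissue and hold other cells. The median over 14 skeletal muscle genes was 345 CPM (yCA) and 109 CPM (yMSN), and at most 1.33 CPM elsewhere. Over 12 bone and cartilage genes it was 42.7 CPM in yMSN and at most 3.23 CPM elsewhere, and over 12 meningeal and fibroblast genes it was 134 CPM in yMSN and at most 41.1 CPM elsewhere. Over 19 genes of the isthmus, midbrain and hindbrain the median was 14.7 CPM (SP), 5.94 CPM (HP) and under 1 CPM in the other 4. The labels were not borne out by every marker: Gsx2 and Dlx2, transcription factors of the striatal germinal zone, had levels of 2.59 and 16.8 CPM (SP) against 4.08 and 28.6 CPM (HP). The dMSN libraries held Ppp1r1b, the DARPP-32 gene of medium spiny neurons, at 2575 and 2473 CPM, but also Neurod6, of cortical and hippocampal neurons, at 50.4 and 93.9 CPM, and Ttr, of the choroid plexus, at 5463 and 4293 CPM. Young libraries held markers of the other lineage as well, with Neurod6 at 169 (yMSN) and 396 CPM (yCA). The median over 15 pallial genes was 53.7 (yMSN) and 121 CPM (yCA), and over 22 subpallial and striatal genes 35.2 (yMSN) and 26.5 CPM (yCA). Xist, which is expressed from the inactive X chromosome of female cells, stood at 489 to 1087 CPM in the 4 single libraries, and 3 Y-linked genes (Kdm5d, Ddx3y and Eif2s3y) had 0 counts in SP and in yCA, although both are labelled male.

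Wnt proteins are lipid-modified signals that bind a Frizzled receptor and an LRP co-receptor, which stabilises beta-catenin, or act through other receptors on cell polarity. In the embryonic forebrain the cortical hem, at the medial edge of the pallium, secretes Wnt8b, Wnt3a, Wnt2b and Wnt5a, and signalling from the hem is needed for the hippocampus to form. Sfrp proteins and Wif1 bind Wnt ligands outside the cell, and Dkk1, Dkk2 and Dkk4 act on the LRP co-receptors. The questions asked of these genes were how their transcripts differ by stage (young against precursor, and dMSN against earlier striatal tissue) and between hippocampal and striatal libraries.

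For the hem ligands, the promoters that the reference table holds are shown because they differ in sequence class. Promoter windows of 250 bases before and 50 after the first listed start were taken from RefSeq on build GRCm38.p6, which is not the build of the counts, and the capitals mark CG dinucleotides. No window was found for Wnt5a.
Wnt8b, chr19:44493222-44493521, plus strand: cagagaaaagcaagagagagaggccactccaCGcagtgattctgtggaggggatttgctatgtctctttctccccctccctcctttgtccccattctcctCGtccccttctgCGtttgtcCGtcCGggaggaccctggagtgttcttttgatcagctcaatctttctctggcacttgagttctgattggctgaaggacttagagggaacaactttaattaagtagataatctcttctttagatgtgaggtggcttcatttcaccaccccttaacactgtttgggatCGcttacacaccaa
Wnt3a, chr11:59290702-59291001, minus strand: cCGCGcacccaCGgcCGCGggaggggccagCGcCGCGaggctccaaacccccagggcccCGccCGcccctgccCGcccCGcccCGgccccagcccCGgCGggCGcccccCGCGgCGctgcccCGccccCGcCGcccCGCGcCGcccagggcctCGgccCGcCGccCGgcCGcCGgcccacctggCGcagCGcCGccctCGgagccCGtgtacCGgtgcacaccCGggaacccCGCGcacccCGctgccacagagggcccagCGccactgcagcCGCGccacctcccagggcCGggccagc
Wnt2b, chr3:104961660-104961959, minus strand: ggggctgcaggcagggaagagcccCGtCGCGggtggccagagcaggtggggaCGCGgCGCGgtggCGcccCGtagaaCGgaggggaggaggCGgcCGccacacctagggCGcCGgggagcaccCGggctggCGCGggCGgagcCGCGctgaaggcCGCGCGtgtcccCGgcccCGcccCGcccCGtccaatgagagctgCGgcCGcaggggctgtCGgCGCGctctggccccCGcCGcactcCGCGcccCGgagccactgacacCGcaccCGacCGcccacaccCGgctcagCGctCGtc
The Wnt8b window was 48.3% G and C with 6 CG dinucleotides, an observed over expected ratio of 0.345. The Wnt3a window was 86.3% G and C with 45 of them (ratio 0.863), and the Wnt2b window 79.7% with 43 (ratio 0.903). Among members, 26 of 38 had a window, and 21 of the 26 (80.8%) had a ratio of at least 0.6, against 36.5% of all 27025 windows in the table. Members' windows had a median of 71.0% G and C, against 52.7% over all windows. By role the ratio reached 0.6 in 12 of 15 ligand windows, 6 of 6 receptor windows and 3 of 5 antagonist windows. The letters TCAAAG, the core that TCF and LEF factors bind, were found on either strand in 3 of 26 members' windows (11.5%), those of Dkk1, Fzd1 and Wnt11, and in 16.2% of all windows.

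Among the 4 hem ligands, Wnt8b, Wnt3a and Wnt5a fell from precursor to young tissue, and Wnt8b was the only one with a lower striatal value at both stages. Wnt8b stood at 61.0 (HP), 20.4 (SP), 2.80 (yCA), 0.829 (yMSN), 0.665 (dMSN 1) and 0.432 CPM (dMSN 2). Every later library was under both precursor libraries, and each striatal library was under the hippocampal library of its stage. Wnt3a stood at 6.86 (HP), 8.48 (SP), 1.18 (yCA) and 0.230 CPM (yMSN), and in the dMSN libraries it had 6 counts in all. The 2 ligands therefore differed in order between the precursors, with Wnt3a higher in SP and Wnt8b higher in HP. Wnt5a, which mostly acts on cell polarity, stood at 90.9 (HP), 85.8 (SP), 27.8 (yCA), 39.8 (yMSN), 6.66 (dMSN 1) and 6.32 CPM (dMSN 2). Wnt2b stood at 7.72 (HP), 8.08 (SP), 4.16 (yCA), 8.79 (yMSN), 0.740 (dMSN 1) and 0.932 CPM (dMSN 2). Its level in yMSN was the highest of the 6 libraries, though within counting error of SP, so unlike the other hem ligands it was not lower in both young libraries.

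From precursor to young tissue, Wnt8b fell by 4.52 in log2 units (SE 0.314, adjusted p = 0.00169, edgeR quasi-likelihood test with Benjamini-Hochberg adjustment over all genes), Wnt3a fell by 3.74 (SE 0.743, adjusted p = 0.0165) and Wnt5a fell by 1.41 (SE 0.197, adjusted p = 0.00626). Wnt2b did not pass, with a log2 change of -0.38 (SE 0.372, adjusted p = 0.461), which was 0.12 without HP and 0.02 without yCA. The Wnt3a call was lost without dMSN 1 (adjusted p = 0.0568) or dMSN 2 (adjusted p = 0.0555), which give the model part of its spread. Of 13 other listed genes of the hem and dorsal midline, 7 fell (53.8%) and none rose, where 13.7% and 21.7% of all genes did. Bmp4, Bmp6 and Bmp7 of that list were lower in yCA than in HP but higher in yMSN than in SP. The rest were lower in both young libraries than in the precursors of their lineage. The list's median level was 45.2 (HP), 20.8 (SP), 8.41 (yCA), 9.74 (yMSN), 8.21 (dMSN 1) and 10.9 CPM (dMSN 2). It thus stayed about level from young tissue to dMSN. The 13 include Rspo1, Rspo2, Rspo3 and Axin2, which are given again below as genes of the pathway. Fewer hem cells in a dissection and less RNA per cell cannot be told apart in such tissue.

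Between lineages, the 2.99-fold higher Wnt8b count in HP than in SP (95% interval 2.76 to 3.25) and the 3.38-fold higher count in yCA than in yMSN (2.30 to 5.08) were beyond counting error, which is all that these exact intervals cover. Over both stages the log2 difference of striatal from hippocampal libraries was -1.66 for Wnt8b (SE 0.285), and it did not pass in edgeR (adjusted p = 0.896). DESeq2 called it (adjusted p = 0.000913). Without yMSN, where the precursors alone set the lineage difference, edgeR gave adjusted p = 0.0418, without yCA 0.0553, without HP 0.0375, without SP 0.0203 and without both young libraries 0.00577, an alternative chosen after seeing the data. For Wnt3a the ratio of SP to HP was 1.24, and yCA had a 5.14-fold higher count than yMSN (2.56 to 11.4). The log2 lineage difference was -0.82 for Wnt3a (SE 0.703, adjusted p = 1). It was -2.35 without HP or without SP, where the young pair alone sets it, and changed sign without yCA (0.31) or without yMSN (0.30). It was 0.22 for Wnt5a (SE 0.193, adjusted p = 1), with the sign changed in the same fits (-0.0815 and -0.0855), and 0.57 for Wnt2b (SE 0.372, adjusted p = 1). The median level of the hem and midline list was also higher in HP than in SP. Lmx1a (11.2 and 20.8 CPM in HP and SP) and Gdf7 (0.517 and 2.57 CPM) of that list went the other way. Over both stages the list's median log2 lineage difference was 0.001. The isthmus, midbrain and hindbrain list was higher in SP. The part of either list in these values was not tested.

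**Figure D1:**
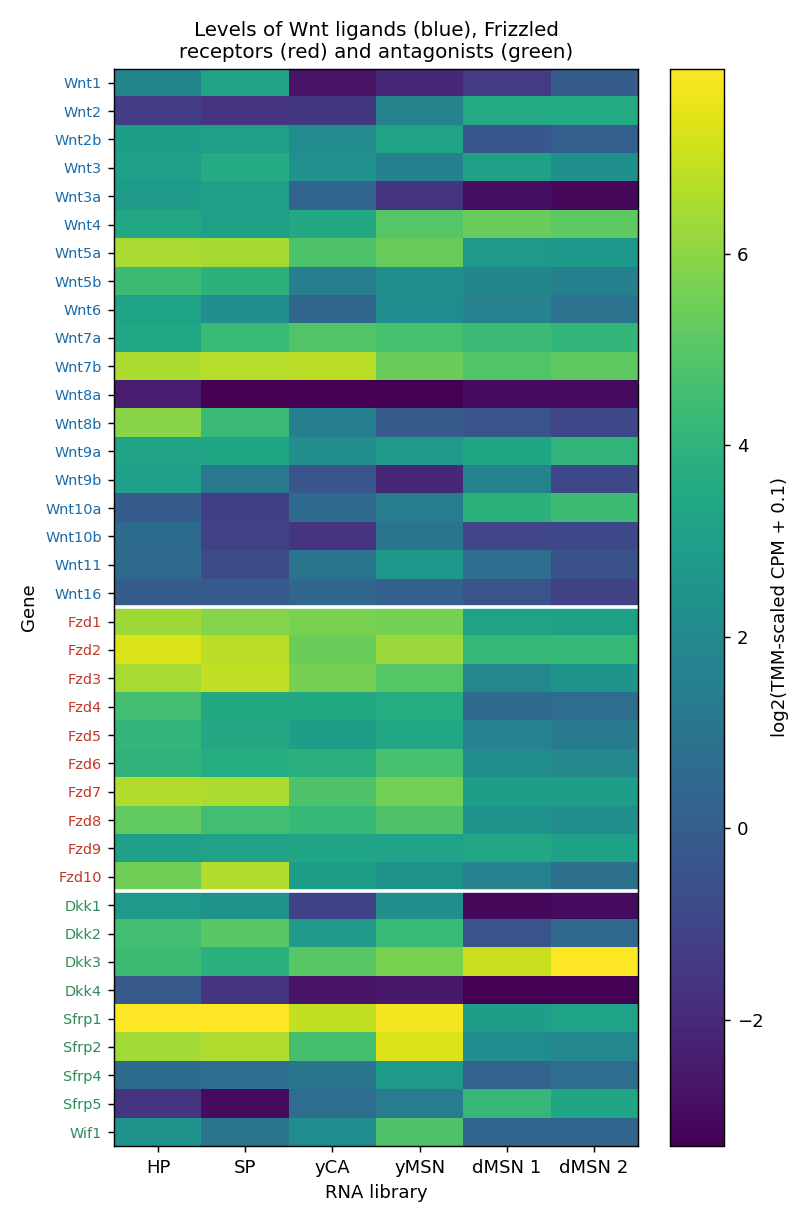
Level of each of the 38 members (rows) in the 6 RNA libraries (columns), as the log2 of TMM-scaled CPM plus 0.1, with ligands in blue, Frizzled receptors in red and antagonists in green. Most Frizzled rows are bright in HP and SP and dark in the dMSN pair, Wnt8b is brightest in HP (61.0 CPM), and Dkk3 is brightest in dMSN 2 (239 CPM).

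The stage test over both lineages called 10 of 37 members lower and 1 higher in young tissue. Of all 19192 genes it called 21.7% higher and 13.7% lower, so for members the share lower was 27.0% and the share higher 2.70%. By role, 6 of 18 ligands and 4 of 10 receptors were lower, and of 9 antagonists 1 was higher. The members' median log2 change was -0.54, against 0.10 over all genes. In the single pairs, which have no test, 16 of the 28 members that reached 5 CPM in at least 1 of the 2 libraries were at least 2-fold lower in yCA than in HP and 1 was at least 2-fold higher, where 14.1% and 20.8% of all such genes were. In yMSN against SP, 10 of 29 members were at least 2-fold lower and 5 at least 2-fold higher, where 9.55% and 20.8% of all such genes were.

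The model has 2 residual degrees of freedom. Without dMSN 1 or without dMSN 2 fewer members, and fewer of all genes, were called. In those fits only the difference between the lineages in the stage change is left as spread. With 1 mean per cell group 20 were called lower and 9 higher, where 3940 and 5683 of all 19192 genes were. With DESeq2 these were 15 and 3, where 3790 and 3970 of all 19192 genes were called. Without SP or without yMSN more members were called lower, and without HP or without yCA more were called higher, since each such fit rests on 1 pair of libraries. The calls over all genes changed in these fits as well. In the precursors all 10 listed cell cycle genes were higher than in young tissue, with a median of 335 (HP), 311 (SP), 60.7 (yCA) and 74.4 CPM (yMSN). The skeletal muscle, epidermal and olfactory lists had 14 of 14, 10 of 12 and 7 of 11 genes higher in young tissue, and their part in the members' values was not tested.

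**Figure D2:**
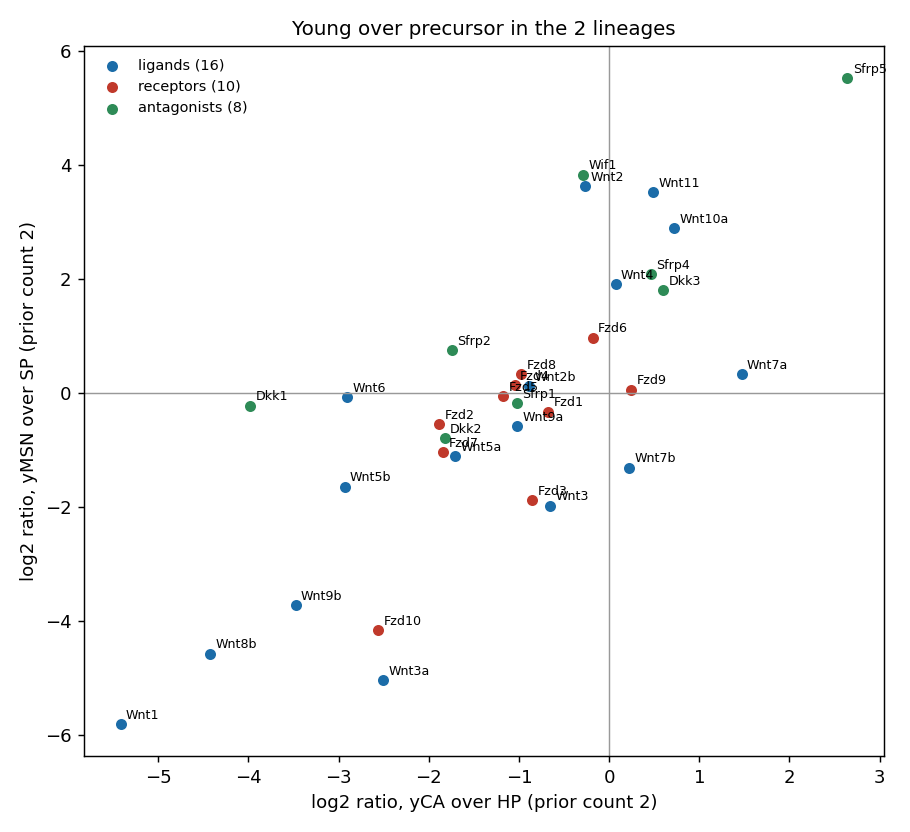
Log2 ratio of young over precursor library for the 34 members with at least 5 CPM in some library, with yCA over HP on the horizontal axis and yMSN over SP on the vertical axis (prior count of 2, no test). Points at the lower left, such as Wnt1, Wnt8b, Wnt9b, Wnt3a and Fzd10, were lower in both young libraries, and Sfrp5 lies at the upper right.

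Among the other ligands, the roof plate and midbrain signals had their highest levels in precursors. Wnt1, which organises the midbrain and hindbrain, stood at 3.47 (HP), 9.37 (SP), 0.0514 (yCA, 2 counts), 0.138 (yMSN, 6 counts), 0.291 (dMSN 1) and 0.872 CPM (dMSN 2). It fell by 6.05 on the log2 scale with stage (SE 0.768, adjusted p = 0.00491). SP was the highest library for Wnt1, as it was for the median of the isthmus, midbrain and hindbrain list, of which 13 of 19 genes fell and which had Atoh1 at 12.1 CPM (SP) against 0.0574 CPM (HP); the part of that tissue in the Wnt1 value was not tested. Wnt3 stood at 8.10 (HP), 11.9 (SP), 5.12 (yCA), 3.02 (yMSN), 8.55 (dMSN 1) and 4.87 CPM (dMSN 2), and its stage change did not pass (log2 change -1.32, adjusted p = 0.0825). Wnt9b stood at 8.04 (HP), 2.19 (SP), 0.694 (yCA), 0.138 (yMSN), 3.21 (dMSN 1) and 0.440 CPM (dMSN 2). It fell with stage by 3.71 (SE 1.04, adjusted p = 0.0431), and HP was 3.67 times SP (2.88 to 4.73). Wnt3 and Wnt9b are neighbours whose models overlap in the reference, and as no strand setting is stated, reads from the overlap cannot be assigned to one of them.

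Wnt5b, a relative of Wnt5a, was another ligand that fell. It stood at 20.8 (HP), 14.8 (SP), 2.70 (yCA), 4.74 (yMSN), 3.52 (dMSN 1) and 3.004 CPM (dMSN 2), a stage change of -2.29 in log2 units (SE 0.400, adjusted p = 0.0115). Both later stages were thus under both precursors without overlap. Wnt6 stood at 9.25 (HP), 4.51 (SP), 1.21 (yCA), 4.28 (yMSN), 3.08 (dMSN 1) and 1.86 CPM (dMSN 2). It was at least 2-fold lower in yCA than in HP but nearly level between SP and yMSN, and did not pass (adjusted p = 0.201). Wnt9a stood at 9.53 (HP), 9.79 (SP), 4.68 (yCA), 6.56 (yMSN), 9.89 (dMSN 1) and 16.6 CPM (dMSN 2), and its stage change did not pass either (log2 change -0.80, adjusted p = 0.126).

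Wnt7a and Wnt7b, which signal from neurons and neural progenitors to brain blood vessels, were the ligands that stayed above 10 CPM in every library. For Wnt7a the levels were 10.7 (HP), 19.99 (SP), 29.7 (yCA), 25.2 (yMSN), 20.1 (dMSN 1) and 17.6 CPM (dMSN 2). Among members with at least 5 CPM in yCA or HP it was the 1 that was at least 2-fold higher in yCA (log2 ratio 1.47), while Sfrp5, under 5 CPM in both, had a log2 ratio of 2.64. The Wnt7a stage change did not pass (log2 change 0.90, adjusted p = 0.079). For Wnt7b they were 93.8 (HP), 103.6 (SP), 109.6 (yCA), 41.8 (yMSN), 29.2 (dMSN 1) and 34.8 CPM (dMSN 2). The striatal series thus stepped down after SP, while HP and yCA were close, and the log2 ratio was 0.22 for yCA over HP (0.16 to 0.29) and -1.31 for yMSN over SP (-1.39 to -1.23). Among members with at least 5 CPM in yMSN or yCA, Wnt7b was also the 1 that was at least 2-fold lower in yMSN; Wnt3a, Wnt8b and Wnt9b, all under 5 CPM in both, had log2 ratios of -2.22, -1.72 and -2.10.

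A further group of ligands had its highest levels late. Wnt4 stood at 10.4 (HP), 8.26 (SP), 10.9 (yCA), 31.2 (yMSN), 41.5 (dMSN 1) and 35.2 CPM (dMSN 2). Wnt2 stood at 0.316 (HP), 0.227 (SP), 0.257 (yCA), 3.15 (yMSN), 11.7 (dMSN 1) and 11.8 CPM (dMSN 2). Wnt10a stood at 0.861 (HP), 0.327 (SP), 1.44 (yCA), 2.62 (yMSN), 14.8 (dMSN 1) and 20.9 CPM (dMSN 2). For all 3 the dMSN libraries were the highest, and yMSN came next. Wnt11 differed from them in being highest in yMSN, with levels of 1.35 (HP), 0.503 (SP), 1.90 (yCA), 6.10 (yMSN), 1.65 (dMSN 1) and 0.587 CPM (dMSN 2). None of the 4 passed the stage test, where adjusted p ran from 0.0699 for Wnt10a to 0.183 for Wnt2. The remaining ligands, Wnt10b and Wnt16, stayed between 0.231 and 1.93 CPM in all libraries.

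Frizzled receptors were high in the precursors, and no receptor was called higher in any comparison. Their summed level was 575 (HP), 543 (SP), 239 (yCA), 292 (yMSN) and 64.8 ± 3.10 CPM (dMSN, SD, n = 2). Fzd2 stood at 158.7 (HP), 109.7 (SP), 42.9 (yCA), 75.5 (yMSN), 18.6 (dMSN 1) and 18.4 CPM (dMSN 2). Fzd7, its close relative, stood at 100.2 (HP), 94.4 (SP), 28.0 (yCA), 46.0 (yMSN), 7.96 (dMSN 1) and 7.77 CPM (dMSN 2). Both had the order precursors, then yMSN, then yCA, then dMSN, with a small spread inside the dMSN pair. With stage Fzd7 fell by 1.44 in log2 units (SE 0.229, adjusted p = 0.00875) and Fzd2 fell by 1.21 (SE 0.333, adjusted p = 0.0409). The Fzd2 call was lost without HP (adjusted p = 0.0826), without dMSN 1 (adjusted p = 0.102) and without dMSN 2 (adjusted p = 0.0998).

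Fzd10 and Fzd3 were the receptors with higher values in SP than in HP beyond counting error. Fzd10, a receptor of the dorsal neural tube, stood at 45.3 (HP), 98.1 (SP), 7.66 (yCA), 5.48 (yMSN), 3.04 (dMSN 1) and 1.68 CPM (dMSN 2). It fell with stage by 3.36 (SE 0.510, adjusted p = 0.00773), and SP was 2.16 times HP. The isthmus, midbrain and hindbrain list was higher in SP as well, and its part was not tested. Fzd3, which acts in axon guidance and cell polarity, stood at 88.2 (HP), 115.0 (SP), 48.9 (yCA), 31.4 (yMSN), 3.72 (dMSN 1) and 5.56 CPM (dMSN 2). It fell by 1.36 (SE 0.323, adjusted p = 0.0272), a call lost without dMSN 1 (adjusted p = 0.056) or dMSN 2 (adjusted p = 0.0548).

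The remaining receptors differed less between precursor and young tissue and did not pass the stage test. Fzd1 stood at 81.4 (HP), 59.8 (SP), 50.9 (yCA), 47.8 (yMSN), 8.93 (dMSN 1) and 8.25 CPM (dMSN 2). Fzd8 stood at 36.1 (HP), 22.8 (SP), 18.3 (yCA), 28.8 (yMSN), 5.18 (dMSN 1) and 4.52 CPM (dMSN 2). Fzd4, the receptor of norrin in blood vessels, stood at 23.7 (HP), 11.3 (SP), 11.5 (yCA), 12.4 (yMSN), 1.42 (dMSN 1) and 1.51 CPM (dMSN 2). In these 3 the dMSN libraries lay far under all others, and HP was the highest. Fzd5 stood at 17.3 (HP), 11.002 (SP), 7.64 (yCA), 10.6 (yMSN), 3.10 (dMSN 1) and 2.37 CPM (dMSN 2). Fzd6 stood at 15.9 (HP), 12.6 (SP), 14.0 (yCA), 24.8 (yMSN), 4.45 (dMSN 1) and 3.87 CPM (dMSN 2), with yMSN the highest. Fzd9 was the exception throughout, at 8.18 (HP), 8.76 (SP), 9.69 (yCA), 9.14 (yMSN), 10.6 (dMSN 1) and 8.66 CPM (dMSN 2). Its single libraries lay within or just outside the range of the dMSN pair.

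The antagonists did not follow one pattern, and members of one family differed. Sfrp1 stood at 244.7 (HP), 244.4 (SP), 120.4 (yCA), 216 (yMSN), 7.91 (dMSN 1) and 9.11 CPM (dMSN 2). Sfrp2, which is known from the antihem at the lateral edge of the pallium, stood at 81.9 (HP), 97.6 (SP), 24.4 (yCA), 164 (yMSN), 4.41 (dMSN 1) and 3.63 CPM (dMSN 2). Both were lower in yCA than in yMSN and far lower in dMSN than anywhere else. Neither passed the stage test, with log2 changes of -0.60 for Sfrp1 (adjusted p = 0.11) and -0.49 for Sfrp2 (adjusted p = 0.564). Sfrp5 went the other way, at 0.230 (HP), 0.0252 (SP, 1 count), 1.59 (yCA), 2.53 (yMSN), 18.01 (dMSN 1) and 9.75 CPM (dMSN 2). It was the 1 member that rose with stage, by 4.09 in log2 units (SE 0.874, adjusted p = 0.020), a call lost without dMSN 1 (adjusted p = 0.0636) or dMSN 2 (adjusted p = 0.0593). Sfrp4 stood at 1.46 (HP), 1.59 (SP), 2.03 (yCA), 6.86 (yMSN), 1.09 (dMSN 1) and 1.54 CPM (dMSN 2). Wif1 stood at 5.34 (HP), 1.89 (SP), 4.37 (yCA), 27.3 (yMSN), 1.18 (dMSN 1) and 1.17 CPM (dMSN 2). For both yMSN was the highest library, and their stage changes did not pass (adjusted p = 0.108 for Sfrp4 and 0.263 for Wif1).

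Among the Dickkopf genes, Dkk1 stood at 6.55 (HP), 5.46 (SP), 0.386 (yCA) and 4.70 CPM (yMSN), and had 5 counts over both dMSN libraries. Dkk2 stood at 23.9 (HP), 32.8 (SP), 6.71 (yCA), 19.0 (yMSN), 0.665 (dMSN 1) and 1.33 CPM (dMSN 2). In both, yCA was under yMSN, by 12.2 times for Dkk1 (7.21 to 22.2). Dkk3, a divergent member of the family that is abundant in neurons, stood at 21.0 (HP), 14.4 (SP), 31.8 (yCA), 50.6 (yMSN), 131 (dMSN 1) and 239 CPM (dMSN 2). Here dMSN was the highest and SP the lowest, where for Dkk2 SP was the highest and dMSN the lowest. None of the 3 passed the stage test (adjusted p = 0.181 for Dkk1, 0.0664 for Dkk2 and 0.0737 for Dkk3). Dkk4 never exceeded 0.775 CPM, its level in HP, and had 0 counts in both dMSN libraries.

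Striatal and hippocampal libraries were compared over both stages in the same model, where a lineage difference that is unlike between the stages counts as spread. It called 0 of 37 members and 0% of all 19192 genes in edgeR. At an unadjusted p under 0.05 there were 826 genes and 1 member, Wnt8b, and DESeq2 called 60 genes. The members' median log2 difference was 0.22, against 0.02 over all genes. Among the 34 members with at least 5 CPM somewhere, 3 had a lower value in the striatal library at both stages (Wnt8b, Wnt9b and Fzd1), 6 had a higher one at both (Wnt1, Wnt2b, Wnt9a, Dkk2, Sfrp2 and Sfrp4), and 25 differed in direction between the stages. Any difference in value set a direction here, and the same count over all genes was not made. Counting intervals of the log2 ratio of SP over HP spanned 0 for Wnt2b (-0.17 to 0.30), Wnt9a (-0.18 to 0.25) and Sfrp4 (-0.44 to 0.68). That of yMSN over yCA did so for Wnt1 (-1.06 to 4.77). Without HP or without SP, members and genes as a whole were called in both directions, but those fits compare yMSN with yCA alone.

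The single pairs, which have no test, differed between the stages. As above, a member is counted where 1 or both libraries of the pair reach 5 CPM. In SP against HP, 2 of 29 members were at least 2-fold higher, Wnt1 and Fzd10, where 2.06% of all such genes were. At least 2-fold lower were 5, Wnt6, Wnt8b, Wnt9b, Fzd4 and Wif1, where 0.898% of all such genes were. In yMSN against yCA 7 of 24 members were at least 2-fold higher, where 8.61% of all such genes were: Wnt2b, Wnt4, Wnt11, Dkk2, Sfrp2, Sfrp4 and Wif1. The 1 that was at least 2-fold lower was Wnt7b, where 2.10% of all such genes were. Log2 ratios of yMSN over yCA were 2.75 for Sfrp2 (2.65 to 2.85), 2.63 for Wif1 (2.41 to 2.88) and 1.51 for Wnt4 (1.36 to 1.68). Genes of other tissues differed between these libraries in both directions. The summed level was 15727 CPM for the meningeal and fibroblast list and 1152 CPM for the bone and cartilage list, against 3332 and 141.5 CPM in yCA. The median of 11 olfactory epithelium genes was 33.1 CPM (yMSN) against 0.771 CPM (yCA), with sums of 798 and 673 CPM. For skeletal muscle genes the order was the reverse, as they summed to 2540 (yMSN) against 6866 CPM (yCA), and the choroid plexus sums were 378 CPM (yCA) and 295 CPM (yMSN). Col1a1 alone stood at 6725 CPM (yMSN) against 506 CPM (yCA). The part of these tissues in the members' values was not tested.

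**Figure D3:**
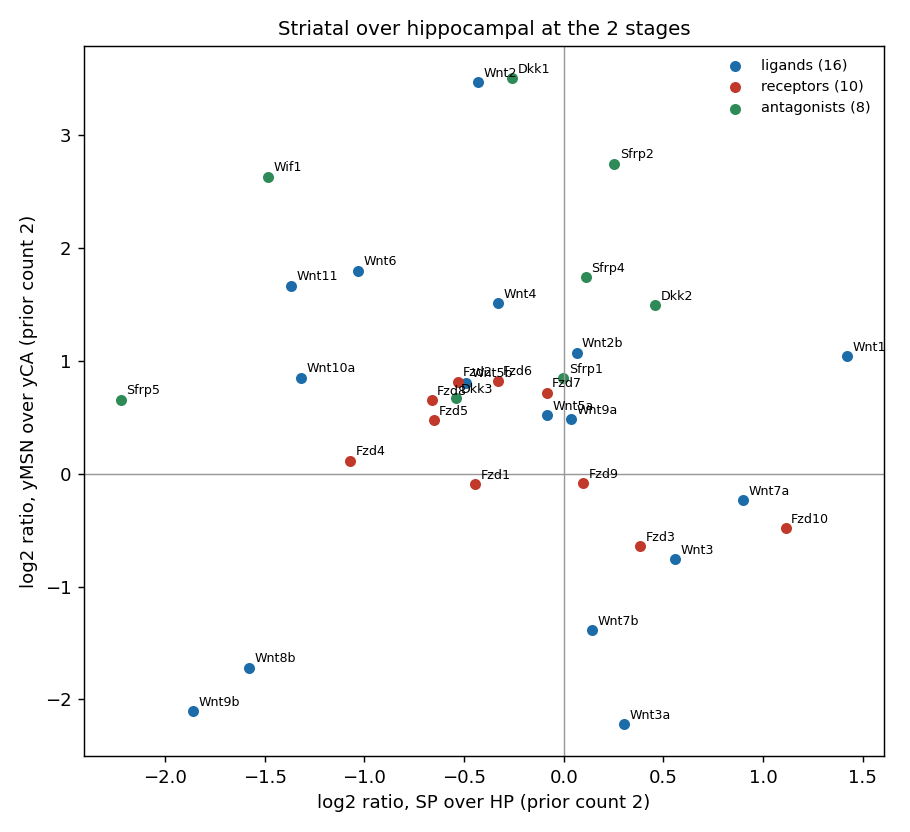
Log2 ratio of striatal over hippocampal library for the 34 members with at least 5 CPM in some library, with SP over HP on the horizontal axis and yMSN over yCA on the vertical axis (prior count of 2, no test). Wnt8b and Wnt9b lie at the lower left, lower in both striatal libraries, and Sfrp2, Dkk1, Wnt2 and Wif1 lie at the top with log2 ratios above 2 for yMSN over yCA.

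Along the striatal series, dMSN libraries had far lower levels of most receptors and antagonists than yMSN. Of 37 members 21 were lower and 8 higher in dMSN, where the test called 35.4% of all genes lower and 32.1% higher. By role, 9 of 10 receptors, 7 of 9 antagonists and 5 of 18 ligands fell, and 6 ligands and 2 antagonists rose. The members' median log2 change was -2.03 (-1.99 without Dkk4, which has no counts in dMSN), against -0.11 over all genes. The receptors that fell did so by 1.21 (Fzd10, adjusted p = 0.00398) to 3.08 (Fzd4, SE 0.267, adjusted p = 7.7e-07) on the log2 scale. Fzd9 had a log2 change of 0.07 (SE 0.285, adjusted p = 0.836). Among the antagonists Sfrp2 fell by 5.35 (SE 0.216, adjusted p = 2.3e-09), Sfrp1 by 4.67 (SE 0.207), Wif1 by 4.53 (SE 0.293), Dkk2 by 4.25 (SE 0.342) and Sfrp4 by 2.38 (SE 0.375). For Dkk1 the count in yMSN was 222 times that of dMSN (93.5 to 690.3), a range set by the 5 counts in dMSN. Dkk4, which also passed, had only 3 counts in yMSN, so no fold is given.

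The ligands did not move one way between yMSN and dMSN. Wnt2b fell by 3.39 in log2 units (SE 0.319, adjusted p = 1.5e-06) and Wnt5a fell by 2.62 (SE 0.199, adjusted p = 2.5e-07), and Wnt3a, Wnt10b and Wnt11 also fell. Wnt10a rose by 2.76 (SE 0.368, adjusted p = 2.9e-05), Wnt2 by 1.90 (SE 0.345, adjusted p = 0.000371), Wnt3 by 1.15 (SE 0.383, adjusted p = 0.018) and Wnt9a by 1.01 (SE 0.348, adjusted p = 0.0213). Wnt1 and Wnt9b passed as well, but these rest on 6 counts each in yMSN and on dMSN libraries that were unlike each other. Wnt9b had 386 counts in dMSN 1 and 51 in dMSN 2, a ratio of 7.29 (5.43 to 9.96), and Wnt1 was 2.996 times as high in dMSN 2 as in dMSN 1 (2.02 to 4.54). These and Wnt11 were the 3 members that differed at least 2-fold inside the pair, among 36 tested with counts in both, whose median ratio of higher to lower was 1.28. Tcf7l2, Lef1, Tcf7 and Tcf7l1 encode DNA-binding partners of beta-catenin. Tcf7l2 and Lef1 also differed inside the pair, at 64.1 and 17.4 CPM in dMSN 1 and 18.8 and 6.21 CPM in dMSN 2. Tcf7 and Tcf7l1 were close, at 7.24 and 7.22 CPM in dMSN 1 and 7.69 and 6.197 CPM in dMSN 2. Of the antagonists Sfrp5 rose by 2.45 (SE 0.432, adjusted p = 0.000287) and Dkk3 by 1.87 (SE 0.319, adjusted p = 0.000226).

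This comparison has 1 residual degree of freedom, which comes from the dMSN pair. Without dMSN 1 or without dMSN 2, in a fit with lineage and stage as terms, fewer members were called in both directions, as were fewer of all genes. Among the higher calls Wnt1, Wnt3 and Wnt9a were lost with DESeq2 (adjusted p = 0.0965, 0.071 and 0.0701), and Wnt1 without SP (adjusted p = 0.0532). Among the lower calls Wnt10b and Dkk4 were lost with DESeq2 (adjusted p = 0.201 and 0.182). Wnt3a, Wnt10b, Wnt11, Fzd2, Fzd5, Fzd10, Dkk1, Dkk4, Sfrp4 and Wif1, called lower, were lost without dMSN 1 and also without dMSN 2, with adjusted p from 0.0502 (Dkk1) to 0.527 (Wnt10b) in edgeR. Of the higher calls, Wnt2, Wnt3, Wnt9a, Wnt9b and Sfrp5 were lost without dMSN 1, with adjusted p from 0.0646 (Wnt9a) to 0.712 (Wnt3). Without dMSN 2, Wnt1, Wnt2, Wnt3, Wnt9a, Wnt10a and Sfrp5 were lost, with adjusted p from 0.0567 (Wnt10a) to 0.269 (Wnt9a). With both dMSN libraries the same model with lineage and stage lost Wnt1, Wnt2, Wnt3, Wnt10b, Wnt11 and Dkk4, with adjusted p from 0.0548 (Wnt2) to 0.299 (Wnt10b). Beside these changes, all 14 skeletal muscle genes, 11 of 12 bone and cartilage genes and 11 of 12 meningeal and fibroblast genes were lower in dMSN, and all 10 oligodendrocyte genes and 9 of 10 astrocyte genes were higher. The oligodendrocyte median was 26.9 CPM in yMSN and 408 and 361 CPM in dMSN 1 and 2. Their part in the members' changes was not tested.

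Against the striatal precursors, 22 of 37 members were lower in dMSN and 5 higher, where the test called 33.1% of all genes lower and 39.1% higher. This comparison shares the dMSN libraries with the one before it. By role, 9 of 10 receptors, 8 of 18 ligands and 5 of 9 antagonists fell, and 3 ligands and 2 antagonists rose. The median log2 change was -2.01 for the members and 0.20 for all genes. All 4 hem ligands were lower, Wnt8b by 5.21 in log2 units (SE 0.300, adjusted p = 1.3e-08), Wnt5a by 3.72 (SE 0.201) and Wnt2b by 3.27 (SE 0.319), and the Wnt3a count in SP was 334 times that of dMSN (152 to 916). Fzd10 fell by 5.37 (SE 0.307), Fzd3 by 4.63 (SE 0.248) and Fzd7 by 3.59 (SE 0.198), while Fzd9 had a log2 change of 0.13 (SE 0.287, adjusted p = 0.692). Wnt10a rose by 5.76 (SE 0.474, adjusted p = 3.0e-07), Wnt2 by 5.68 (SE 0.479, adjusted p = 3.7e-07), Wnt4 by 2.22 (SE 0.262, adjusted p = 7.8e-06) and Dkk3 by 3.68 (SE 0.359, adjusted p = 1.4e-06). Sfrp5 had 1 count in SP and 3297 in the dMSN pair, a ratio of 555 with an interval of 99.5 to 21912. Dkk4, with 9 counts in SP and 0 in dMSN, was at least 17.8-fold higher in SP at a floor of 3 counts over the pair. Without both young libraries, an alternative chosen after seeing the data, 23 members were lower and 5 higher. Wnt2 and Wnt4, called higher, and Wnt3 and Wnt7b, called lower, were lost without dMSN 1 (adjusted p = 0.0815, 0.138, 0.257 and 0.135) and without dMSN 2 (adjusted p = 0.0795, 0.0983, 0.818 and 0.0895), and Fzd6 without dMSN 2 (adjusted p = 0.0572), in the model with lineage and stage, which lost Wnt3 with both dMSN libraries too (adjusted p = 0.362). With DESeq2 Wnt3 (adjusted p = 0.142) and Dkk4 (adjusted p = 0.0512) were lost. Beside these changes all 10 cell cycle genes and 18 of 19 isthmus, midbrain and hindbrain genes were lower in dMSN, and all 10 oligodendrocyte genes and 8 of 10 astrocyte genes were higher. Their part in the members' values was not tested.

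**Figure D4:**
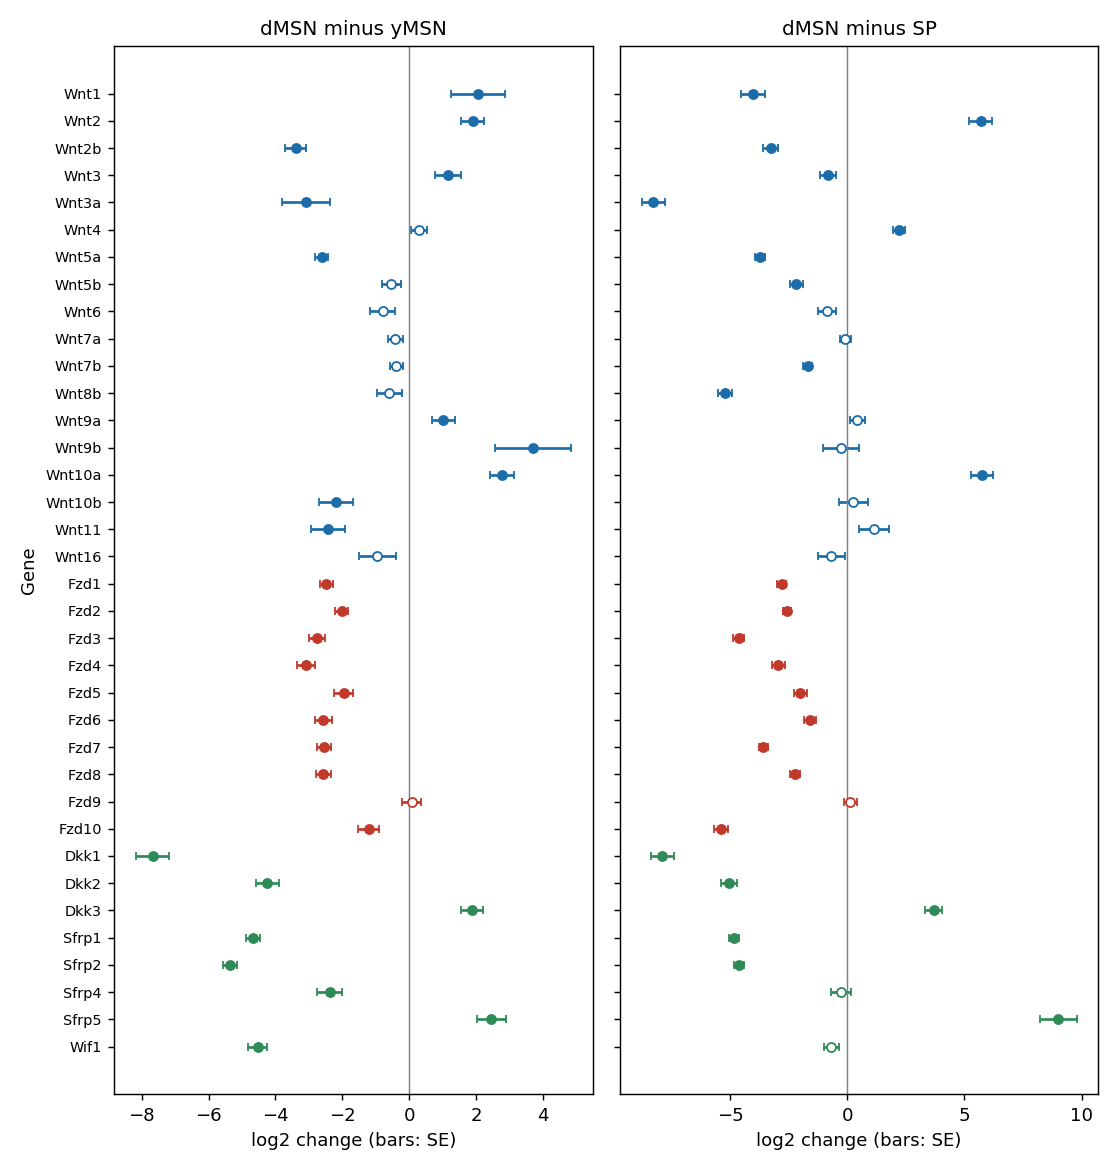
Log2 change of dMSN against yMSN (left) and against SP (right) for 36 members, with bars of 1 SE on each side and filled points for members past an adjusted p of 0.05 in edgeR. Dkk4 and Wnt8a are left out because of their low counts. In both panels 9 of 10 Frizzled receptors (red) lie left of 0 and Fzd9 lies on it.

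Other listed genes of the pathway changed in both directions with stage. Of 57 tested co-receptors, secretion factors, agonists, other antagonists, cytoplasmic and nuclear components and target genes, 15 were lower and 7 higher in young tissue, shares of 26.3% and 12.3%, where 13.7% and 21.7% of all genes were. Rspo1 and Rspo2, R-spondin ligands that raise Frizzled levels at the cell surface, fell by 2.60 and 2.17 on the log2 scale (adjusted p = 0.0194 and 0.0185). Ccnd1, the cyclin D1 gene, fell by 2.30 (adjusted p = 0.00826), Lef1 by 2.22 (adjusted p = 0.0232) and Axin2, a widely used target gene and feedback inhibitor, by 1.75 (SE 0.149, adjusted p = 0.00226). Apc2, a neuronal relative of the Apc tumour suppressor, rose by 2.10 (adjusted p = 0.0156). Axin2 stood at 101 (HP), 93.4 (SP), 29.5 (yCA), 28.4 (yMSN), 17.9 (dMSN 1) and 19.7 CPM (dMSN 2). Hippocampal and striatal libraries of a stage were thus close, and its log2 lineage difference was -0.09 (SE 0.145). Of 12 target genes 5 fell with stage and none rose.

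Between lineages 0 of these 57 genes passed in edgeR. Rspo3, another R-spondin of the hem, stood at 45.2 (HP), 10.2 (SP), 16.6 (yCA), 9.74 (yMSN), 8.21 (dMSN 1) and 10.7 CPM (dMSN 2), and had the largest log2 difference, -1.46 (SE 0.388, adjusted p = 1). It was followed by Dkkl1 at 1.35, Tcf7l2 at -1.16, Rspo2 at -0.99, Ndp, the norrin gene, at 0.82 and Lgr5, an R-spondin receptor, at 0.78, and none of these passed. In the precursors Rspo1 and Rspo2 were also lower in SP, at 20.04 and 19.1 CPM, than in HP, at 44.3 and 49.3 CPM. These values put all 3 R-spondins with Wnt8b, and apart from Wnt3a, in the order of HP and SP.

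From yMSN to dMSN 36 of the 57 fell and 6 rose, where 35.4% of all genes fell and 32.1% rose. Draxin, an antagonist and axon guidance protein that the files list under an older symbol, fell by 6.78 on the log2 scale (SE 0.230), Ror2 by 4.44 (SE 0.239), Dact1 by 3.66 (SE 0.230), Ror1 by 3.35 (SE 0.255) and Ptk7 by 3.25 (SE 0.193). Ror1, Ror2 and Ptk7 encode co-receptors that act with Wnt5a on cell polarity, and with Frizzled genes they were thus lower together. Dkkl1 rose by 4.33 (SE 0.382) to 30.3 and 45.7 CPM in dMSN 1 and 2. Against SP 41 fell and 8 rose, where 33.1% and 39.1% of all genes did, with Draxin, Ror2, Ccnd1, Ror1 and Ptk7 lower by 6.53, 5.14, 4.52, 3.74 and 3.54, and Dkkl1 higher by 6.09.

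Several ligand genes lie next to each other in the reference, with no other protein-coding gene between them, and neighbours did not follow one pattern. Wnt6 and Wnt10a are neighbours. In dMSN Wnt10a rose against yMSN and SP, and Wnt6 passed neither test (adjusted p = 0.0757 and 0.0518). Wnt3a and Wnt9a are neighbours too. Wnt3a fell in both comparisons, while Wnt9a rose against yMSN and did not pass against SP (adjusted p = 0.26). Of Wnt10b and Wnt1, Wnt10b fell and Wnt1 rose against yMSN. For Wnt9b and Wnt3, whose models overlap, both rose against yMSN. As given above, the Wnt1 and Wnt9b calls rest on 6 counts each in yMSN. The calls of Wnt1, Wnt3, Wnt9a and Wnt10b against yMSN were lost with DESeq2. In all, 13 members overlap another gene model in the reference, among them Wnt2b with St7l, Wnt5b with Fbxl14 and Fzd4 with Tmem135, and reads in those overlaps cannot be assigned without strand.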

How the data were processed

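The authors deposited 1 table of unnormalised counts for each library, with rows named by gene symbol, made with tools that the submitters' processing notes name without roles: TopHat2 2.0.2, TopHat, Bowtie 1.0.0, HTSeq, edgeR, Bismark and methylKit, with builds mm9 and NCBIM37. No strand setting is stated. Reads assigned to no gene were 5.34% to 9.81% of the total and stayed out of library sizes. In R 4.3.3, counts were scaled by TMM, filtered with filterByExpr and tested with the edgeR 4.0.16 quasi-likelihood F test (limma 3.58.1), with Benjamini-Hochberg adjustment at 0.05 over 19192 genes. Stage and lineage were additive terms over all 6 libraries, and dMSN comparisons used 1 mean per cell group. The SE is the log2 change divided by the square root of F. Log2 ratios of single pairs use a prior count of 2 and exact 95% intervals that cover counting error only, as floors do. Alternatives were RLE scaling, 2 filters, DESeq2 1.42.0, the other model and each library left out. Of the 38 members, those with at least 5 CPM in a library are given in every library, and up to 6 other pathway genes per comparison are named by the size of their change. Members, lists and tests were chosen with earlier results of these data known. Gsx2, Dlx2, Ppp1r1b, Neurod6, Ttr, Atoh1, Col1a1, Lmx1a and Gdf7 come from marker lists. Xist, the 3 Y-linked genes and the levels of Axin2, Tcf7, Tcf7l1, Lmx1a and Gdf7 were added after seeing the data.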

Additional observations from a re-analysis of the deposited data

Results flagged for a closer look

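For 4 of the 34 members with at least 5 CPM in a library, the young over precursor ratio went opposite ways in the 2 lineages, with counting intervals on opposite sides of 0. The same count over all genes was not made. Small ratios can meet this rule, such as that of Fzd6 in yCA over HP, with a log2 ratio of -0.18 (-0.36 to -0.0099). The difference itself was not tested, since each lineage has 1 library per stage. The log2 ratio of yMSN over SP minus that of yCA over HP was 2.50 for Sfrp2, 1.31 for Fzd8, 1.16 for Fzd6 and -1.53 for Wnt7b. Sfrp2, Fzd8 and Fzd6 were higher in yMSN than in SP and lower in yCA than in HP, and Wnt7b was the reverse. The yMSN library also held the highest levels of the bone and cartilage and the meningeal lists, whose part in these values was not tested.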

How the results depend on the processing

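Depth was lowest in the single libraries, where members under 1 CPM rest on few counts. The stage count of 10 members lower and 1 higher was 20 and 9 with 1 mean per cell group, and DESeq2 called 15 and 3. Of all 19192 genes, the former called 3940 lower and 5683 higher, and DESeq2 called 3790 lower and 3970 higher. RLE scaling moved the median stage change of all genes from 0.10 to -0.02 and the median of dMSN against SP from 0.20 to 0.08, and the share of stage calls that were higher was 61.3% in edgeR and 51.2% in DESeq2. Calls over all genes also changed with libraries left out, and the ranges of members that follow are given without the shares of all genes. They are therefore not read as a result about the members. With each library left out in turn, the stage test called 7 to 21 members lower and 0 to 11 higher, the lineage test 0 to 3 lower and 0 to 11 higher, dMSN against yMSN 11 to 21 lower and 2 to 8 higher, and dMSN against SP 19 to 24 lower and 3 to 5 higher. For lineage, where 0 were called, 1 mean per cell group called 2 members higher and 1 lower. Of all 19192 genes it called 319 higher and 37 lower. DESeq2 called 1 member lower, where it called 48 genes higher and 12 lower. For dMSN against yMSN, DESeq2 and the model with lineage and stage each called 5 members higher in place of 8. Of all genes they called 4998 and 5523 higher in place of 6162. With a minimum of 1 CPM, 2 members in place of 1 were at least 2-fold higher in yCA than in HP, 9 in place of 5 in yMSN than in SP, and 11 in place of 7 in yMSN than in yCA, where 3 in place of 1 were lower. With each library left out, the Wnt2b stage value ran from -0.89 to 0.12 (0.12 without HP, 0.02 without yCA), the Wnt3a lineage value from -2.35 to 0.31 and the Wnt5a lineage value from -0.0855 to 0.52, so these signs were not fixed. The Wnt3a value was 0.31 without yCA and 0.30 without yMSN, and without both young libraries, a fit added after seeing the data, it was 0.32. The Wnt5a value was -0.0815 without yCA, -0.0855 without yMSN and -0.0726 without both. The causes were not tested. No paired analysis was possible because the RNA groups share no replicate numbers beyond 1, since 4 of the 5 have a single library.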
